A study of Homo sapiens with 12 samples.

Results

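The genes described here are 7 whose products define the mesenchymal side of the epithelial-mesenchymal transition (EMT): vimentin (VIM), N-cadherin (CDH2) and the transcription factors ZEB1, ZEB2, SNAI1 (Snail), SNAI2 (Slug) and TWIST1. They were chosen by name as 7 of the 40605 entries of the deposited gene count table, and all 7 were among the 13047 that passed the filter on low counts. The cells were A549, a human lung adenocarcinoma line, carrying a tet-inducible DYRK1B, a dual-specificity kinase, as the wild type (WT) or as the Y273F mutant. The labelled groups, of 3 libraries each, were WT doxycycline, WT control, Y273F doxycycline and Y273F control. All were cultured for 7 days, the doxycycline groups with 2 µg/ml of the inducer and the controls without it. No A549 line lacking a transgene is among the samples, so the effects of doxycycline and of the induced kinase cannot be told apart, and whether a line is 1 clone is not stated in the labels.

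In EMT, epithelial cells loosen their junctions, replace E-cadherin with N-cadherin, build vimentin filaments and become motile. Factors of the Snail, ZEB and Twist families drive this programme, and Snail and ZEB proteins repress E-cadherin by binding E-boxes in its promoter. ZEB1 and ZEB2 messages are in turn held down by microRNAs of the miR-200 family. A549 cells are known as a line of mixed character, which keeps E-cadherin and keratins beside high vimentin, and which responds to TGF-beta with further EMT.

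The sequences below show the 2 kinds of regulatory element named above. The mature miR-200 family microRNAs (RefSeq, GRCh38.p14) fall into a pair of groups by seed, bases 2 to 8, which is in capitals and differs at a single base between the groups:
hsa-miR-200b-3p: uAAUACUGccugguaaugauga
hsa-miR-200c-3p: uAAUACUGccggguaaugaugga
hsa-miR-429: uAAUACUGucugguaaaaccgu
hsa-miR-200a-3p: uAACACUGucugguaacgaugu
hsa-miR-141-3p: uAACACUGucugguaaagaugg
Mature microRNAs are not measured by 3' tag sequencing of polyadenylated RNA. MIR200CHG, the host gene of miR-200c and miR-141, had 0 counts in each of the 12 libraries.

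Promoter windows of 250 bases before the RefSeq gene start were used for 4 of the 7 genes and are printed to show the E-box, the element that Snail, ZEB and Twist proteins bind. The E-box was searched as CANNTG, which reads the same on both strands and includes CACCTG and its reverse complement CAGGTG, the form bound by Snail and ZEB. Matches are in capitals, each sequence runs 5′ to 3′ on the gene's strand, and coordinates are GRCh38.p14.
VIM, plus strand, chr10:17227991-17228240: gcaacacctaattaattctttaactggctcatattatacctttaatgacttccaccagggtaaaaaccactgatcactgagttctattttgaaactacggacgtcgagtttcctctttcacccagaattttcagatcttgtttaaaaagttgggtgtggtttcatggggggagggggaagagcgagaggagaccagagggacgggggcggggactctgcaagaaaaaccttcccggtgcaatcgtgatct
CDH2, minus strand, chr18:28177131-28177380: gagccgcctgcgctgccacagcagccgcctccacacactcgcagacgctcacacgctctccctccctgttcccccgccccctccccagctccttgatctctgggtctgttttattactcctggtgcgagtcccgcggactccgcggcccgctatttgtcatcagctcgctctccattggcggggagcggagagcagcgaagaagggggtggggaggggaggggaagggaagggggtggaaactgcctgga
ZEB1, plus strand, chr10:31318167-31318416: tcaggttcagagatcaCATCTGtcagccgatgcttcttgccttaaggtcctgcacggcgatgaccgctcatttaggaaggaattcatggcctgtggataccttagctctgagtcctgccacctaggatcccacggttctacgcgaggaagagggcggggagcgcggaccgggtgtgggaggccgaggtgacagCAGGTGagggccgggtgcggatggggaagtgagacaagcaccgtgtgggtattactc
ZEB2, minus strand, chr2:144520120-144520369: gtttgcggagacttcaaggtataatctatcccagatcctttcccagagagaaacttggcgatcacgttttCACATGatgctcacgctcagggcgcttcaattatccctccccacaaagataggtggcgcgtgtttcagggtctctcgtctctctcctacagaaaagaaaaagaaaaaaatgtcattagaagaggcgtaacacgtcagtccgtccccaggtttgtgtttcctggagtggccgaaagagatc
ZEB1 held 2 matches, 1 of them in the CAGGTG form, ZEB2 held 1 in another form, and VIM and CDH2 held 0. Of 35116 promoter windows of the same length, 61.8% held CANNTG and 17.5% held CACCTG or CAGGTG, so matches of this kind are common. SNAI1, SNAI2 and TWIST1 are named only.

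Library totals ranged from 2783265 to 22028624 counts with a median of 7552148.5, so that 3 counts corresponded to between 0.134 and 1.07 CPM, the counts scaled to a common library total. DYRK1B (chromosome 19, 39825350 to 39834162), which doxycycline should raise, went against several labels. It had 28.6, 4.07 and 7.80 CPM in the libraries labelled WT doxycycline 1 to 3, against 5.80, 3.15 and 5.64 CPM in those labelled WT control 1 to 3. In the libraries labelled Y273F doxycycline 1 to 3 it had 4.65, 4.89 and 20.0 CPM, against 2.63, 12.6 and 3.22 CPM in those labelled Y273F control 1 to 3. The 3 highest libraries thus carried 3 different labels, and neither doxycycline group lay apart from its control. A 3' tag reads the transgene as DYRK1B only if the construct ends as the natural gene does, which the labels do not state. Results by label below are therefore for the libraries labelled so.

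The levels were also described by the library numbers of the labels, in the sets 2/6/10, 1/5/9, 4/8/12 and 3/7/11. Set 2/6/10 holds the library labelled WT doxycycline 3, that labelled WT control 2 and that labelled Y273F doxycycline 1, and set 1/5/9 those labelled WT doxycycline 2, WT control 1 and Y273F control 3. Set 4/8/12 holds those labelled WT doxycycline 1, Y273F doxycycline 3 and Y273F control 2, which are the 3 with the highest DYRK1B, and set 3/7/11 those labelled Y273F doxycycline 2, Y273F control 1 and WT control 3. The sets match no labelled group, no condition is given to them, and they were proposed with results of these data known, so they are described without a test.

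By label, 0 of the 7 genes passed an adjusted p under 0.05 in any comparison, and 1 high or low library often set the spread of its group of 3. By library number, 6 of the 7 were higher in all 3 libraries of set 2/6/10 than in all 3 of set 1/5/9, where 27.7% of all genes were, and TWIST1 was lower in all 3, where 27.6% were. ZEB2 and SNAI2 are among the 6, and their being high in set 2/6/10 was what took them past the filter on low counts. The ratios of set means were 1.55 to 7.07 for VIM, CDH2, ZEB1 and SNAI1. In these bulk libraries, fewer cells of a type and less RNA per cell cannot be told apart.

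**Figure D1:**
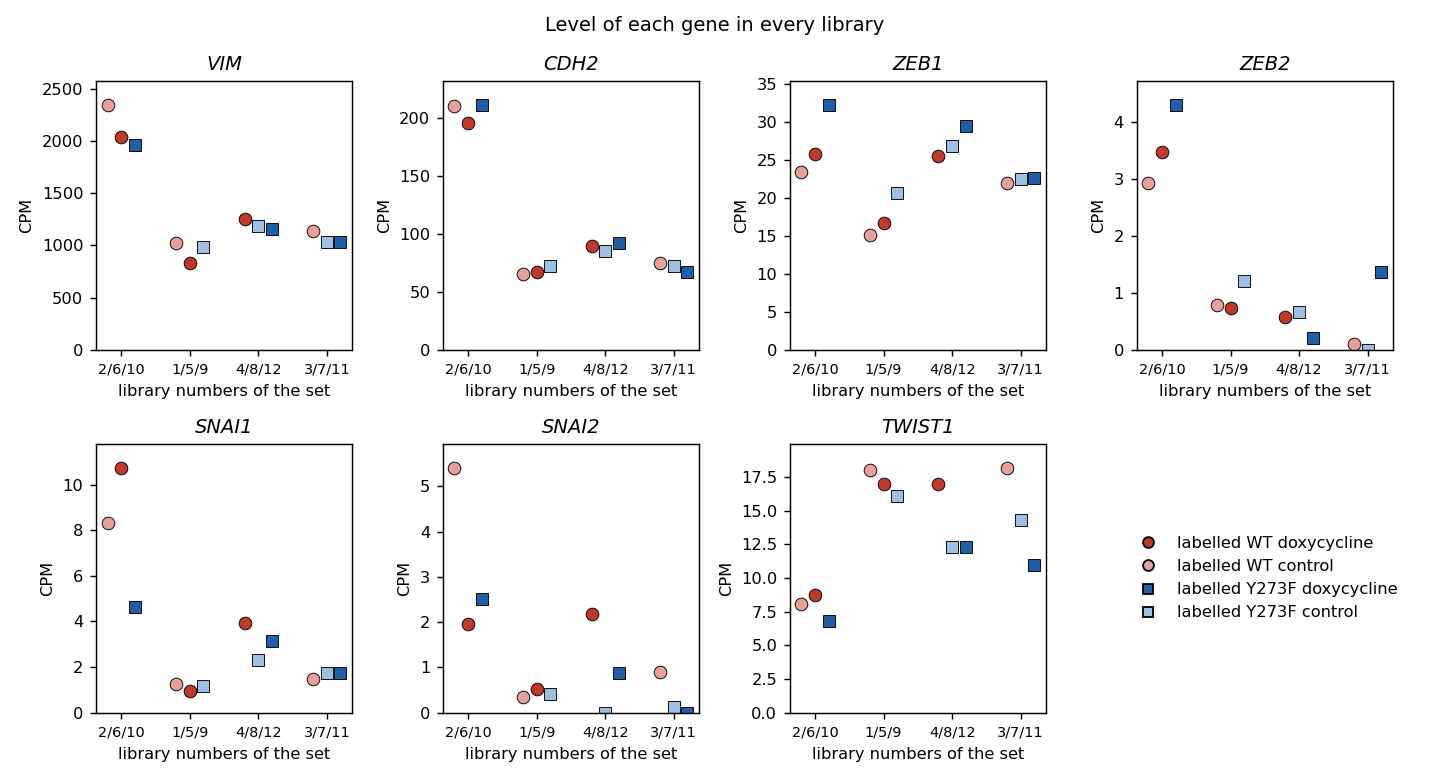
Level of each of the 7 genes in every library, in CPM on linear axes from 0, by library set (x axis), with colour and shape giving the labelled group of each library. Libraries 2, 6 and 10 sit above the other 9 for VIM, CDH2, ZEB2 and SNAI1 and below them for TWIST1, while points of the same colour are spread over the sets.

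VIM (ENSG00000026025, chromosome 10, 17228241 to 17237593) encodes the main intermediate filament protein of mesenchymal cells. It had 1249, 836 and 2033 CPM in the libraries labelled WT doxycycline 1 to 3, against 1025, 2338 and 1135 CPM in WT control 1 to 3. It had 1956, 1029 and 1158 CPM in Y273F doxycycline 1 to 3, against 1034, 1190 and 983 CPM in Y273F control 1 to 3. A single library stood high in each group but Y273F control, and the labelled groups overlapped in every comparison. The group means were 1372 ± 608 CPM in WT doxycycline and 1499 ± 728 CPM in WT control (SD, n = 3 each). The means were 1381 ± 502 CPM in Y273F doxycycline and 1069 ± 108 CPM in Y273F control (SD, n = 3 each).

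By library number the same 12 values separated fully. Set 2/6/10 held 1956 to 2338 CPM of VIM, followed in order by set 4/8/12 with 1158 to 1249 CPM, set 3/7/11 with 1029 to 1135 CPM and set 1/5/9 with 836 to 1025 CPM. No set overlapped its neighbour, but the gap between the last 2 sets was only that between 1029 and 1025 CPM. The mean of set 2/6/10 was 2.23 times that of set 1/5/9, and the mean of set 4/8/12 was 1.12 times that of set 3/7/11.

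CDH2 (ENSG00000170558, chromosome 18, 27932879 to 28177130) encodes N-cadherin, the adhesion protein that replaces E-cadherin in EMT. It had 89.4, 66.8 and 195.5 CPM in WT doxycycline 1 to 3, against 65.7, 210.4 and 75.3 CPM in WT control 1 to 3. In Y273F doxycycline 1 to 3 it had 210.5, 67.4 and 92.2 CPM, against 72.2, 85.0 and 72.1 CPM in Y273F control 1 to 3. The 3 libraries near 200 CPM were numbers 2, 6 and 10, and the other 9 lay between 65.7 and 92.2 CPM. The mean of set 2/6/10 was thus 3.01 times that of set 1/5/9 and 2.31 times that of set 4/8/12, without overlap. Set 4/8/12, at 85.0 to 92.2 CPM, lay above set 3/7/11, at 67.4 to 75.3 CPM, by 1.24 times in the means. Sets 3/7/11 and 1/5/9 overlapped. By label the means were 117 ± 68.7 CPM in WT doxycycline and 117 ± 80.9 CPM in WT control, and 123 ± 76.4 CPM in Y273F doxycycline and 76.4 ± 7.44 CPM in Y273F control (SD, n = 3 each).

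ZEB1 (ENSG00000148516, chromosome 10, 31318417 to 31529804), a zinc finger and homeodomain repressor of epithelial genes, was with TWIST1 one of the factors above the filter's level of 1.32 CPM in all 12 libraries. It had 25.5, 16.7 and 25.8 CPM in WT doxycycline 1 to 3, against 15.1, 23.4 and 22.0 CPM in WT control 1 to 3. It had 32.2, 22.7 and 29.5 CPM in Y273F doxycycline 1 to 3, against 22.6, 26.9 and 20.7 CPM in Y273F control 1 to 3. The labelled groups overlapped. By number, sets 4/8/12 and 2/6/10 were level, with means of 27.3 and 27.1 CPM and overlapping ranges, followed by set 3/7/11 with 22.0 to 22.7 CPM and set 1/5/9 with 15.1 to 20.7 CPM. Both 2/6/10 over 1/5/9, at 1.55 times, and 4/8/12 over 3/7/11, at 1.22 times, were without overlap.

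ZEB2 (ENSG00000169554, chromosome 2, 144384081 to 144520119), the paralogue of ZEB1, was close to the detection floor. Its counts were 4, 7 and 25 in WT doxycycline 1 to 3 (0.581, 0.730 and 3.48 CPM), against 7, 13 and 1 in WT control 1 to 3 (0.796, 2.93 and 0.113 CPM). They were 12, 7 and 2 in Y273F doxycycline 1 to 3 (4.30, 1.37 and 0.217 CPM), against 0, 2 and 27 in Y273F control 1 to 3 (0, 0.664 and 1.21 CPM). The 0 in Y273F control 1 allows up to 0.376 CPM, counting error only. Only libraries 2, 6 and 10, at 2.93 to 4.30 CPM, stood above the range of 0 to 1.37 CPM of the other 9. The mean of set 2/6/10 was 3.92 times that of set 1/5/9, while sets 4/8/12 and 3/7/11, with 8 counts each in all, could not be ordered at this depth.

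SNAI1 (ENSG00000124216, chromosome 20, 49982980 to 49988886) encodes Snail, a short-lived zinc finger repressor of E-cadherin that is induced early in EMT. It had 3.92, 0.939 and 10.7 CPM in WT doxycycline 1 to 3, against 1.25, 8.33 and 1.47 CPM in WT control 1 to 3. In Y273F doxycycline 1 to 3 it had 4.65, 1.76 and 3.15 CPM, against 1.76, 2.33 and 1.16 CPM in Y273F control 1 to 3. The labelled groups overlapped in every comparison. By number, SNAI1 ran in the same order as VIM and without overlap at any step: 4.65 to 10.7 CPM in set 2/6/10, 2.33 to 3.92 CPM in set 4/8/12, 1.47 to 1.76 CPM in set 3/7/11 and 0.939 to 1.25 CPM in set 1/5/9. These rest on 127, 63, 36 and 46 counts summed over the 3 libraries of each set. The ratio of means was 7.07 for 2/6/10 over 1/5/9 and 1.89 for 4/8/12 over 3/7/11. Its processed pseudogene SNAI1P1, like ZEB2P1, had 0 counts in all 12 libraries.

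SNAI2 (ENSG00000019549, chromosome 8, 48917598 to 48921429) encodes Slug, the second Snail-family repressor. Its counts were 15, 5 and 14 in WT doxycycline 1 to 3 (2.18, 0.522 and 1.95 CPM), against 3, 24 and 8 in WT control 1 to 3 (0.341, 5.40 and 0.903 CPM). They were 7, 0 and 8 in Y273F doxycycline 1 to 3 (2.51, 0 and 0.869 CPM), against 1, 0 and 9 in Y273F control 1 to 3 (0.125, 0 and 0.403 CPM). The zeros allow up to 0.586 CPM in Y273F doxycycline 2 and 0.996 CPM in Y273F control 2. SNAI2 was 7.79 times as high in the mean of set 2/6/10 as in that of set 1/5/9, but the library labelled WT control 2 (number 2) carried much of this. Without it the log2 ratio was 2.40, against 2.96 with it. Set 2/6/10 overlapped set 4/8/12, and set 4/8/12 overlapped set 3/7/11.

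TWIST1 (ENSG00000122691, chromosome 7, 19113047 to 19117636), a basic helix-loop-helix factor that activates CDH2 in other systems, ran the other way. It had 17.0, 17.0 and 8.77 CPM in WT doxycycline 1 to 3, against 18.1, 8.10 and 18.2 CPM in WT control 1 to 3. It had 6.80, 11.0 and 12.3 CPM in Y273F doxycycline 1 to 3, against 14.3, 12.3 and 16.1 CPM in Y273F control 1 to 3. The Y273F groups did not overlap, but by the width of 12.28 against 12.29 CPM. By number, set 2/6/10 held 6.80 to 8.77 CPM and lay below the other 9 libraries, at 11.0 to 18.2 CPM. Its mean was 0.462 times that of set 1/5/9 and 0.570 times that of set 4/8/12, and the other 3 sets overlapped one another.

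Doxycycline against control in the WT line asked whether 7 days of induced wild-type kinase went with a change of these genes. The log2 fold change of VIM was -0.13 (SE 0.38, 95% interval -0.95 to 0.70), and that of CDH2 was 0.01 (SE 0.53, -1.16 to 1.18). For the factors, the log2 fold change was 0.17 for ZEB1, 0.44 for ZEB2, 0.56 for SNAI1, -0.43 for SNAI2 and -0.07 for TWIST1, with intervals that all included 0. None of the 7 passed edgeR's quasi-likelihood test (adjusted p = 1 for each), where 0.0% of all 13047 genes did. None of the 7 had groups without overlap, where 3.2% of all genes did. DYRK1B itself had a log2 fold change of 1.44 (SE 0.82, edgeR adjusted p = 1).

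In the Y273F line, doxycycline against control gave positive estimates for 6 of the 7 genes, none of them past the test. VIM had a log2 fold change of 0.37 (SE 0.38, 95% interval -0.46 to 1.19) and CDH2 of 0.68 (SE 0.54, -0.50 to 1.87). The estimates were 0.27 for ZEB1, 1.32 for ZEB2, 0.91 for SNAI1 and 1.91 for SNAI2, and TWIST1 had -0.49. Each had an edgeR adjusted p of 0.990, and again 0.0% of all genes were called. TWIST1 was the only one of the 7 with groups that did not overlap, where 10.9% of all genes had such groups and 5.46% were lower. Library 10 was in the doxycycline group here and no library of set 2/6/10 was in the control. Without libraries 2, 6 and 10, a choice made after the data were seen, ZEB2 had a log2 fold change of -0.06. With a term for the set, also added later, VIM had -0.08, CDH2 -0.01 and SNAI1 -0.20. Without library 10 alone VIM had 0.03, CDH2 0.07, ZEB2 0.07 and SNAI2 0.94. With each library left out in turn, ZEB1 stayed between 0.172 and 0.398, SNAI1 between 0.604 and 1.196 and TWIST1 between -0.671 and -0.308. All 7 genes kept their sign in those fits. Whether the sets account for the estimates in this line was not tested.

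**Figure D2:**
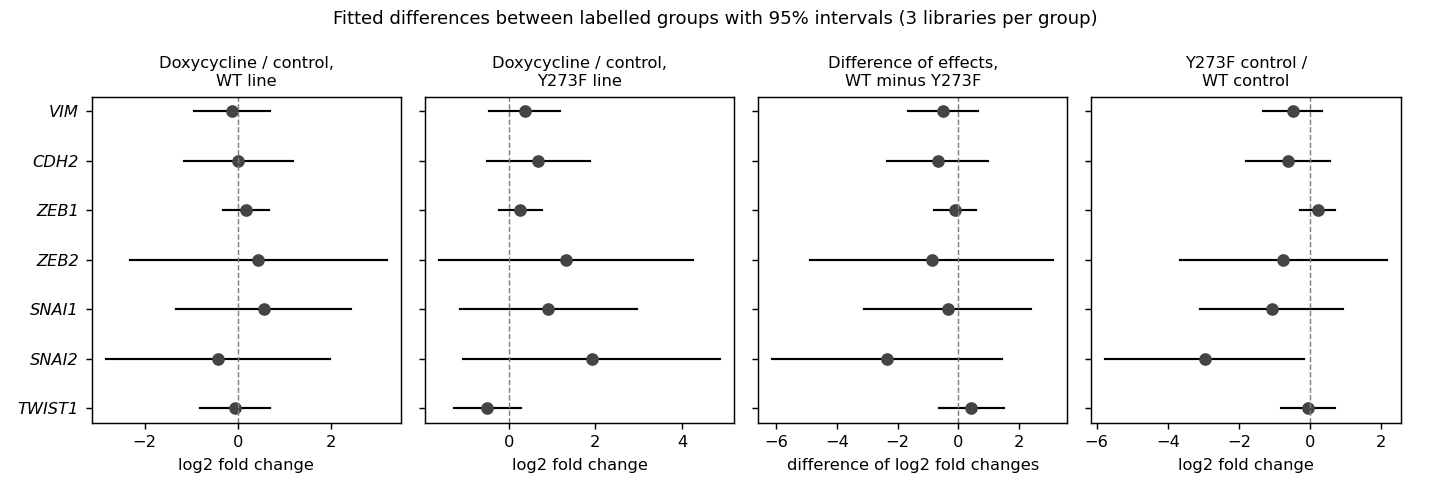
Fitted log2 fold changes (points) with 95% intervals (lines) of the 7 genes in the 4 labelled comparisons, 3 libraries per group, each panel with its own axis. Every interval includes 0 except that of SNAI2 between the control groups, which runs from -5.76 to -0.17 and did not pass adjustment over all genes.

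The difference of these effects, WT minus Y273F, asked whether the response depended on the form of the kinase. It was -0.50 for VIM (SE 0.53) and -0.68 for CDH2 (SE 0.76) on the log2 scale. It ranged from -2.35 for SNAI2 to 0.43 for TWIST1, and edgeR's adjusted p was 1.00 for each, with 0.0% of all genes called.

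Y273F control against WT control compared the lines without the inducer. SNAI2 had the lowest estimate, a log2 fold change of -2.96 (SE 1.27, 95% interval -5.76 to -0.17), with means of 0.176 ± 0.206 CPM in Y273F control and 2.22 ± 2.77 CPM in WT control (SD, n = 3 each). Its unadjusted p in edgeR was 0.0396 and its adjusted p 0.991, and the groups overlapped. Leaving out 1 library moved it between -4.31, without Y273F control 3, and -1.25, without WT control 2. The estimates were -0.49 for VIM, -0.61 for CDH2, 0.21 for ZEB1, -0.75 for ZEB2, -1.08 for SNAI1 and -0.06 for TWIST1. In this comparison too 0.0% of all genes were called, and none of the 7 had groups without overlap, where 10.9% of all genes did. Library 2, which is in WT control, has no counterpart from set 2/6/10 in Y273F control, and without libraries 2, 6 and 10 the estimate was 0.11 for CDH2, 0.65 for ZEB2 and 0.24 for SNAI1. With each library left out in turn, VIM stayed between -0.70 and -0.02 and ZEB1 between 0.03 and 0.32. Whether the sets account for these estimates was not tested.

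Across all genes tested, the counts called in these 4 comparisons were 0 with edgeR, with DESeq2 and with limma-voom. At an unadjusted p under 0.05, edgeR gave 118 genes for doxycycline in WT, 215 for doxycycline in Y273F, 160 for the difference and 445 for the control groups, each below the 652.35 expected with no difference and independent genes. DESeq2 gave 110, 214, 141 and 471 in the same order, and limma-voom 145, 199, 154 and 454.

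Between sets 2/6/10 and 1/5/9, 55.3% of all 13047 genes had no overlap, 27.7% higher and 27.6% lower, so such separation was common among all genes. ZEB2 and SNAI2 reached the filter's level of 1.32 CPM in 4 libraries each, 3 of which were those of set 2/6/10, so they were tested through the set in which they were high. Between sets 4/8/12 and 3/7/11, where 17.5% of all genes had no overlap, 8.98% higher and 8.5% lower, VIM, CDH2, ZEB1 and SNAI1 were higher without overlap and the other 3 overlapped. Between sets 2/6/10 and 4/8/12, where 48.1% had no overlap, 25.0% higher and 23.1% lower, VIM, CDH2, ZEB2 and SNAI1 were higher and TWIST1 lower. Between sets 3/7/11 and 1/5/9, where 19.6% had no overlap and 9.67% were higher, VIM, ZEB1 and SNAI1 were higher. Between set 2/6/10 and the other 9 libraries, where 35.1% had no overlap, 18.8% higher and 16.3% lower, VIM, CDH2, ZEB2 and SNAI1 were higher and TWIST1 lower. The median log2 ratio of all genes was -0.01 for 2/6/10 over 1/5/9 and 0.00 for 4/8/12 over 3/7/11. For all 35 pairings of a gene with a pair of sets, the position was the same with TMM factors, library totals, DESeq2 size factors and the per-library tables.

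CDH1 (chromosome 16, 68737292 to 68835537) encodes E-cadherin, the best known target of Snail and ZEB, and is set here beside CDH2. It had 24.5 to 30.5 CPM in set 2/6/10, against 44.1 to 50.4 CPM in set 1/5/9, and 55.1 to 60.5 CPM in set 4/8/12, against 53.8 to 67.0 CPM in set 3/7/11. CDH1 was thus 0.566 times as high in the first pairing, without overlap, and 0.978 times as high in the second, with overlap. The ratio of CDH2 counts to CDH1 counts, compared only between libraries, was 8.58, 6.41 and 8.28 in libraries 2, 6 and 10, and 1.12 to 1.64 in the other 9. In set 4/8/12 the ratio was 1.48 to 1.64, against 1.12 to 1.34 in set 3/7/11. By label, the high ratios belonged to WT doxycycline 3, WT control 2 and Y273F doxycycline 1.

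**Figure D3:**
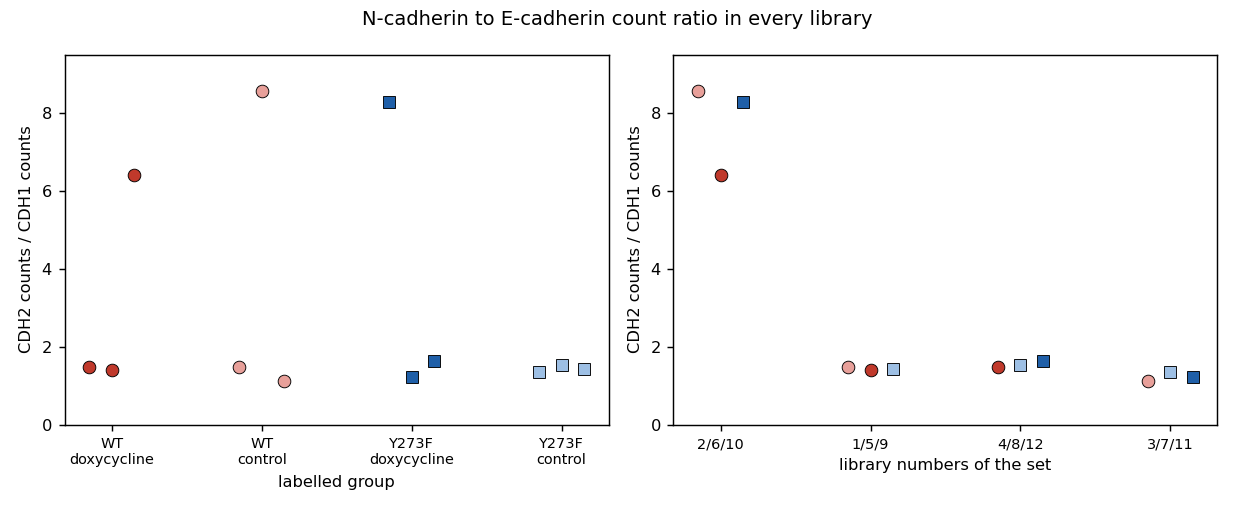
Ratio of CDH2 counts to CDH1 counts in every library, by labelled group (left) and by library set (right), with the colours and shapes of the labelled groups in both panels and axes from 0. Libraries 2, 6 and 10 lie between 6.41 and 8.58 and carry 3 different labels, and the other 9 lie between 1.12 and 1.64.

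Epithelial genes known as Snail or ZEB targets, 16 of 19 of which were tested, were on balance lower in set 2/6/10 than in set 1/5/9. Without overlap, 10 were lower, where 27.6% of all genes were, and 3 higher, where 27.7% were, with a median log2 ratio of -0.54. Against set 4/8/12, 5 were lower and 4 higher in set 2/6/10, where 23.1% and 25.0% of all genes were. Against the other 9 libraries, 3 were lower and 3 higher, where 16.3% and 18.8% were. Set 3/7/11 was also below set 1/5/9 for 5 and above it for 1. In that pairing 19.6% of all genes had no overlap in either direction, and 9.67% were higher. EPCAM, an epithelial adhesion protein, had 4.65 to 6.75 CPM in set 2/6/10, against 29.8 to 32.5 CPM in set 1/5/9. TJP3, a tight junction scaffold, had 0.975 to 1.43 CPM, against 7.05 to 8.77 CPM, and JUP, the plakoglobin of junctions, had 167 to 182 CPM, against 188 to 209 CPM. In set 4/8/12 EPCAM had 4.79 to 8.37 CPM, which overlapped set 2/6/10. The 3 that were higher than in set 1/5/9 did not do what the name of the list says: the tight junction claudins CLDN1 and CLDN4, at 2.00 and 1.54 times, and the desmosome gene PKP2, at 1.25 times. In 4/8/12 over 3/7/11, EPCAM and JUP were lower without overlap, at 0.476 and 0.768 times, where 8.5% of all genes were, and the other 14 overlapped.

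Genes of the mesenchymal state other than the 7, with 18 of 22 tested, were higher in set 2/6/10 than in set 1/5/9 in 17 cases, where 27.7% of all genes were, and lower in 0, with a median log2 ratio of 2.95. Among the 17 is LUM, with 11.4 to 13.7 CPM in set 2/6/10 and 0.805 to 1.565 CPM in set 1/5/9. It was tested through the set in which it was high. TGFBI, a secreted matrix protein, had 2499 to 3419 CPM in set 2/6/10, against 360.4 to 388 CPM in set 1/5/9. SPARC, a collagen-binding matrix protein, had 33.6 to 53.6 CPM in set 2/6/10, against 0.796 to 1.67 CPM in set 1/5/9. The remaining one, S100A4, overlapped. In 4/8/12 over 3/7/11, 10 were higher without overlap, where 8.98% of all genes were, among them COL1A1 at 2.17 times and THY1 at 2.08 times. TNC, also counted there, had only 0.196 to 0.502 CPM in set 3/7/11, around the level of 3 counts. CD44 was lower, at 0.805 times, and LUM, with 0 to 0.217 CPM in set 4/8/12, against 0.391 to 1.00 CPM in set 3/7/11, could not be ordered at this depth, since the 0 in library 8 allows up to 0.996 CPM. By label, 0 of the 18 passed edgeR's test in each comparison, and the same held for the tested genes of every other list described here.

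COL1A1 and LUM are also fibroblast markers, and the summed level of the 7 fibroblast markers was 148 to 212 CPM in set 2/6/10, against 14.5 to 32.2 CPM in the other 9 libraries. The other 5 markers were at or near 0: PDGFRA at most 1.07 CPM, PDGFRB 0.900, COL1A2 0.358, COL3A1 0.996 and DCN 0.0447 CPM. Of 4 smooth muscle markers, MYH11 reached at most 0.376 CPM and DES 0, while CNN1 and ACTA2 brought the sum to 36.2 to 41.4 CPM in set 2/6/10, against 11.8 to 25.4 CPM in the other 9. Endothelial markers summed to at most 1.07 CPM in any library, with VWF and KDR at 0, and haematopoietic markers to 5.87 to 12.1 CPM, mostly CD14, with CD3E at 0. The 8 markers of A549 cells were present in every library, summing to 19020 to 22870 CPM in set 2/6/10, against 15840 to 19900 CPM in the other 9.

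Factors known to restrain EMT, of which 6 of 13 were tested, were lower in set 2/6/10 than in set 1/5/9 in 5 cases, where 27.6% of all genes were, and higher in 0. Against set 4/8/12, 2 of the 6 were lower in set 2/6/10, where 23.1% of all genes were. Against the other 9 libraries, 1 was lower, where 16.3% were. Set 3/7/11 was also below set 1/5/9 for 4 and above it for 0. In that pairing 19.6% of all genes had no overlap in either direction, and 9.67% were higher. FOXA2, a pioneer factor of lung and gut epithelium, had 107 to 116 CPM in set 2/6/10, against 223 to 230.2 CPM in set 1/5/9. FOXA1 had 14.8 to 17.5 CPM, against 40.6 to 45.3 CPM, and the ETS factor EHF had 2.15 to 4.05 CPM, against 13.6 to 19.6 CPM. The splicing regulator ESRP1 was at 0.439 times and ELF3 at 0.699 times. ESRP1 had 1.46 to 2.15 CPM in set 1/5/9 and at most 0.975 CPM in set 2/6/10. It was thus tested through the set in which it was high. In 4/8/12 over 3/7/11 only ELF3 was without overlap, at 0.824 times, where 8.5% of all genes were lower.

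Other EMT-inducing factors, with 12 of 16 tested, did not follow the 7. Set 2/6/10 was without overlap above set 1/5/9 for 2 of them and below it for 6, where 27.7% and 27.6% of all genes were, with a median log2 ratio of -0.13. ETS1 had 16.1 to 23.2 CPM in set 2/6/10, against 10.1 to 11.6 CPM in set 1/5/9, and TCF4, an E-protein, was at 1.36 times. FOXQ1 was lower, at 0.377 times, as were SOX9 at 0.564 times and TWIST2, the paralogue of TWIST1, at 0.587 times. SOX4, at 323 to 389 CPM in set 2/6/10 and 327 to 383 CPM in set 1/5/9, overlapped. In 4/8/12 over 3/7/11, TCF3 was higher without overlap, at 1.13 times, where 8.98% of all genes were. FOXQ1 and SOX9 were lower, at 0.429 and 0.815 times, where 8.5% were, and 9 overlapped.

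Around vimentin, 7 of 10 filament relatives and linkers were tested, of which 4 were higher in set 2/6/10 than in set 1/5/9 and 1 was lower, where 27.7% and 27.6% of all genes were. The linker protein plectin (PLEC) had 175 to 275 CPM, against 83.3 to 107 CPM, and internexin (INA) 47.2 to 54.9 CPM, against 18.6 to 20.9 CPM. The neurofilament NEFL had 6.44 to 11.5 CPM, against 0.730 to 0.805 CPM, and NES, nestin, was lower at 0.484 times. PLEC and INA were also higher without overlap in 4/8/12 over 3/7/11, at 1.33 and 1.36 times, where 8.98% of all genes were.

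Of the cadherins and their partners, 8 of 11 were tested, and 4 were higher in set 2/6/10 than in set 1/5/9 with 0 lower, where 27.7% and 27.6% of all genes were. Vinculin (VCL), which links cadherins and integrins to actin, had 490.0 to 566 CPM, against 135 to 144 CPM. R-cadherin (CDH4) had 36.2 to 43.9 CPM, against 6.89 to 7.60 CPM, and the catenins CTNNA1 and CTNNB1 were at 1.69 and 1.37 times. In 4/8/12 over 3/7/11, VCL was higher at 1.33 times and CDH6 was lower at 0.350 times, where 8.98% and 8.5% of all genes were.

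**Figure D4:**
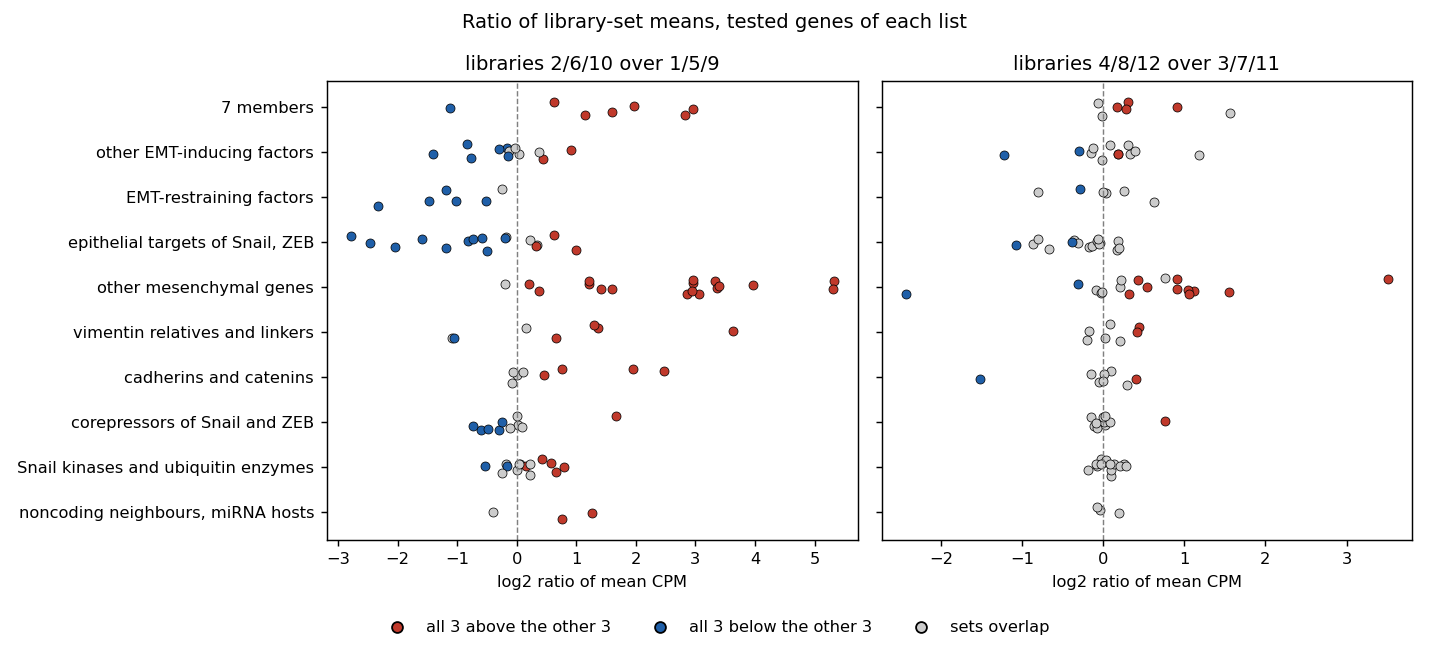
Log2 ratio of mean CPM for the tested genes of each list (points), for libraries 2/6/10 over 1/5/9 (left) and 4/8/12 over 3/7/11 (right), with the 7 members on top and vertical scatter for legibility only. Red points are genes whose first set lies wholly above the second and blue points wholly below. On the left, 17 of the 18 other mesenchymal genes are red and 5 of the 6 EMT-restraining factors blue.

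The 4 members with a mean of at least 5 CPM were compared with 10431 other genes at that level by the root mean square difference of centred log2 CPM over the 12 libraries, in which a smaller value means a more similar profile. VIM was nearest to ERGIC1, with a difference of 0.05, where the median gene was at 0.51, and then to PICALM and HACD1, both at 0.10. CDH2 was nearest to CALD1, the actin regulator caldesmon, and MYH9, the heavy chain of non-muscle myosin, both at 0.09, and to CD59 at 0.11, where the median was 0.68. ZEB1 was nearest to CLIP1 at 0.12, KMT2C and WWC3, both at 0.13, and TWIST1 to NDUFS7, NORAD and C12orf57, at 0.15 each. Between members, VIM and CDH2 differed by 0.22 and CDH2 and TWIST1 by 1.06. These are descriptions over libraries that share the division into sets.

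**Figure D5:**
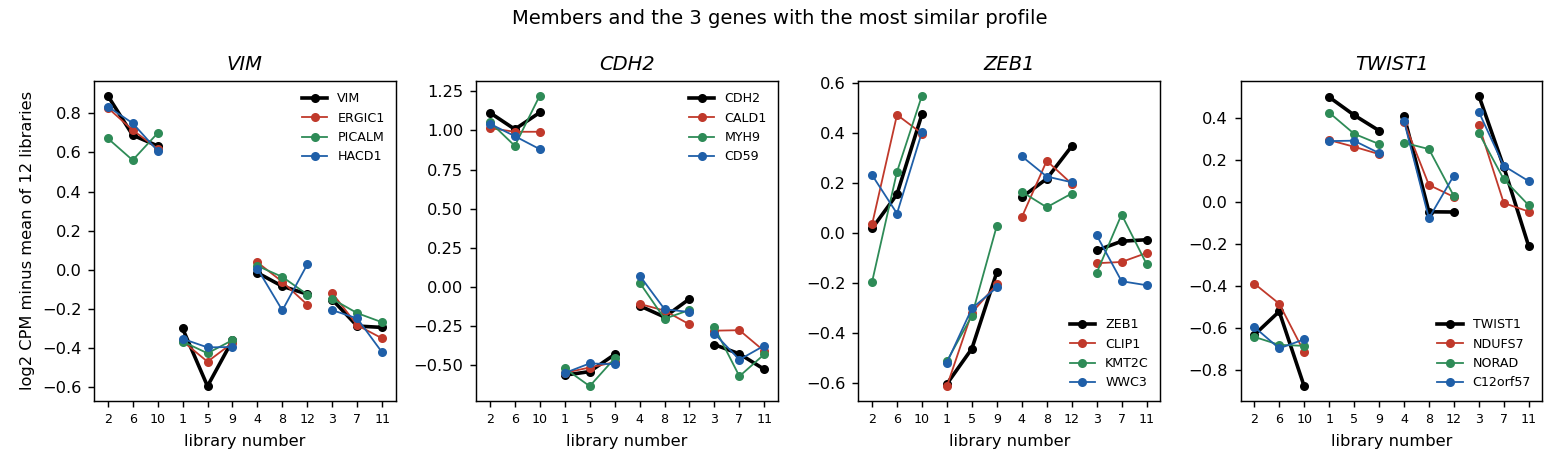
Log2 CPM minus the mean of the 12 libraries for VIM, CDH2, ZEB1 and TWIST1 (thick black lines) and the 3 genes with the most similar profile (thin lines), by library number in the order of the sets 2/6/10, 1/5/9, 4/8/12 and 3/7/11. Lines join libraries of 1 set only, VIM and CDH2 are highest in libraries 2, 6 and 10, and TWIST1 is lowest there.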

How the data were processed

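RNA from 12 cultures of A549 cells was made into QuantSeq FWD V2 libraries, a stranded 3' tag method, per the labels' protocols. Alignment was with STAR to GRCh38.p14, per the submitters' processing notes; the version and annotation were not given in the sources used here. Whole-number counts were deposited by the authors in a merged table, used here, and in per-library tables with a column per strand. The members' entries equalled the transcript-strand counts, and the opposite strand held at most 2 counts of a member in a library. Reads assigned to no gene, 35.5% to 43.2% of a library, stayed out of totals and tests. The number of per-sample columns left unmapped was 0. Floors of 3 counts and intervals cover counting error only.

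Counts were filtered with filterByExpr (minimum count 10), scaled with TMM factors, given as CPM, and tested by quasi-likelihood in edgeR 4.0.16 under R 4.3.3, in 1 model of the 4 labelled groups, with Benjamini-Hochberg adjustment over 13047 genes at 0.05. The series text describes separate populations grown in parallel, so p-values measure the spread between these samples. That spread includes the differences between the library sets, which cross the labelled groups. Standard errors and 95% intervals come from the same fit. The procedure was tested on simulated data without a division into library sets, so that test does not measure its power in these data. Set ratios, ranges and overlaps were computed in Python 3.11.15 with pandas 2.3.3, without a test.

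The members, sets, gene lists and tests were chosen with earlier results of these data known. The named genes are the 7 members and DYRK1B, and from each list every gene past the threshold, otherwise the 3 with the highest mean CPM, and for the sets up to 3 more with the largest ratio without overlap. PKP2, CLDN1, CLDN4, CTNNA1, CD44, TWIST2, TCF4, CDH1, FBXO45, USP27X and the markers and noncoding genes at or near 0 fall partly outside this rule. They were named after their values were seen. A gene that this rule names is not reported here. The nearest profiles are the 3 genes with the smallest root mean square difference of log2 CPM (prior count 2). Coordinates and sequences are from RefSeq on GRCh38.p14, the build of the processing notes. Alternatives were DESeq2 1.42.0 size factors and Wald test, upper-quartile factors, limma-voom (limma 3.58.1), no filter or at least 1 CPM in 6 libraries, a replicate term, only the groups compared, the per-library tables, and leaving out each library. Fits without libraries 2, 6 and 10, fits with a term for the set, and set ratios with DESeq2 size factors were chosen after seeing the data.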

Additional observations from a re-analysis of the deposited data

How the results depend on the processing

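None of the 7 genes passed the threshold in any of the 620 refitted values, whose lowest adjusted p was 0.51, but 44 of these values changed sign. The cause was not tested. For doxycycline in the WT line the log2 fold change of CDH2 (0.01) became -0.003 with upper-quartile factors, -0.001 with the DESeq2 Wald test and -0.058 with a term for the set, and that of SNAI2 (-0.43) became 0.35 with limma-voom. The WT minus Y273F difference of ZEB2 (-0.88) became 0.45 with limma-voom. Without libraries 2, 6 and 10, chosen after seeing the data, doxycycline in the Y273F line gave -0.055 for ZEB2, the difference gave 0.07 for CDH2, 0.59 for ZEB2 and 0.14 for SNAI1, and the control groups gave 0.11, 0.65 and 0.24 for the same genes. SNAI2 was then not tested. With a term for the set, doxycycline in the Y273F line gave -0.079 for VIM, -0.014 for CDH2 and -0.20 for SNAI1, the difference gave 0.029 for ZEB1 and 0.44 for SNAI1, and the control groups gave 0.42 for ZEB2.

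Leaving out each library in turn, doxycycline in the WT line spanned -0.52 to 0.35 for VIM, -0.57 to 0.73 for CDH2, -0.004 to 0.35 for ZEB1, -0.79 to 1.77 for ZEB2, -0.54 to 1.91 for SNAI1, -0.98 to 1.27 for SNAI2 and -0.34 to 0.18 for TWIST1. In the Y273F line the spans were 0.031 to 0.53 for VIM, 0.066 to 0.97 for CDH2, 0.17 to 0.40 for ZEB1, 0.074 to 2.89 for ZEB2, 0.604 to 1.196 for SNAI1, 0.94 to 3.26 for SNAI2 and -0.67 to -0.31 for TWIST1. The difference spanned -0.88 to -0.023 for VIM, -1.24 to 0.052 for CDH2, -0.28 to 0.081 for ZEB1, -2.46 to 0.48 for ZEB2, -1.44 to 1.00 for SNAI1 and -3.70 to -0.62 for SNAI2. The control groups spanned -0.90 to 0.11 for CDH2, -2.32 to 0.59 for ZEB2, -1.51 to 0.27 for SNAI1, -4.31 to -1.25 for SNAI2 and -0.33 to 0.12 for TWIST1. The log2 ratio of set means for 4/8/12 over 3/7/11 spanned -0.60 to 3.11 for ZEB2, 0.34 to 4.02 for SNAI2 and -0.24 to 0.13 for TWIST1, and for 2/6/10 over 1/5/9 it spanned 2.40 to 3.23 for SNAI2, lowest without WT control 2. The number of genes called spanned 0 to 1 for doxycycline in Y273F, the difference and the control groups. The single genes, named after the values were seen, were RPL32P18, when Y273F doxycycline 2 was left out, FKBP1C, when Y273F doxycycline 3 was, and SLX1B, when Y273F control 2 was.

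Correlations of same-numbered deviations from the group means were -0.66 to 0.09 in the WT line and -0.27 to -0.08 in the Y273F line. Between controls they were -0.08 to 0.25. The library sets cross the replicate numbers and enter these deviations, so the correlations cannot show whether the replicate numbers pair the libraries. With the replicate block 0 genes were called in each comparison, and VIM and CDH2 had log2 fold changes of -0.12 and 0.01 in the WT line. ZEB2 and SNAI2 had at most 27 and 24 counts in a library, which limits their precision.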

Other observations

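Of 10 corepressors of Snail and ZEB, 5 were lower in set 2/6/10 than in set 1/5/9 without overlap and 1 was higher, where 27.6% and 27.7% of all genes were. AJUBA, a LIM protein that binds Snail, had 78.4 to 99.4 CPM, against 26.2 to 31.0 CPM, and 50.4 to 56.6 CPM in set 4/8/12, against 25.0 to 42.3 CPM in set 3/7/11. The Polycomb methyltransferase EZH2 was at 0.602 times and the deacetylase HDAC1 at 0.660 times in 2/6/10 over 1/5/9. CTBP2, a corepressor of ZEB proteins, overlapped in both pairings, and 0 of the 10 passed edgeR's test in each labelled comparison.

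Of 15 kinases and ubiquitin enzymes that act on Snail-family proteins, 14 were tested, 5 were higher in set 2/6/10 than in set 1/5/9 and 2 were lower, where 27.7% and 27.6% of all genes were. The kinase LATS2 was at 1.74 times and the ubiquitin ligase subunits FBXL5 and BTRC at 1.57 and 1.49 times. The 2 lower genes were FBXO45 at 0.694 times and USP27X at 0.891 times, and 7 overlapped. In 4/8/12 over 3/7/11 all 14 overlapped, where 17.5% of all genes did not. Of 7 noncoding neighbours of EMT genes and hosts of miRNAs, 3 were tested. SNAI3-AS1, antisense to a Snail-family gene that is no member, had 4.32 to 8.95 CPM in set 2/6/10, against 3.85 to 3.97 CPM in set 1/5/9. MIR34AHG, the host of miR-34a, had 4.60 to 7.20 CPM, against 2.39 to 2.95 CPM, ZEB1-AS1 overlapped, VIM-AS1 reached at most 1.80 CPM and was not tested, and ZEB2-AS1 had 0 counts in all 12 libraries.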
